A study of Rattus norvegicus with 6 samples.

Results

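Cell cycle and proliferation genes were examined in rBMSCs, primary rat bone marrow mesenchymal stem cells, cultured for 4 days on 2 substrates. The set held 8 genes of the 32883 gene identifiers counted, and it was given as a list of Ensembl identifiers with their symbols, which covers mitosis (Mki67, Top2a, Cdk1, Ccnb1 and Cdc20), DNA replication (Pcna), the G1 cyclin Ccnd1 and the inhibitor Cdkn1a. The rule sets no threshold on a measured value, but the genes were picked with earlier results of these data known, so the set is not independent of them. In 3D Nichoids, microscopic scaffolds made by laser polymerization, cells sit inside stacked grids, and in 2D Nichoids the same grid has a single layer. Both groups were untreated cells of the same kind, collected at day 4, with 3 libraries each (replicates A, B and C). The study chose the 2D Nichoid as its control to isolate the effect of the third dimension. It also reports that cells in 2D Nichoids adhered to the glass beneath, so dimension and contact surface cannot be told apart here. The cells were taken from Lewis rats and kept for few passages before seeding. No source used here says whether the 3 libraries of a group came from separate animals or cultures, so p values measure the spread between these libraries, which may be technical.

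A dividing cell passes from G1 through DNA synthesis into mitosis under the control of cyclins and of the kinases they switch on. D cyclins such as Ccnd1 act with kinases in G1 to release the E2F factors that turn on replication genes. Genes needed for mitosis are switched on later, in G2, largely through shared promoter elements, and their transcripts are scarce in resting cells. Cdkn1a, also called p21, blocks the cyclin-dependent kinases and is a well known transcriptional target of p53. Mesenchymal stem cells are expanded in culture before use, so the share of dividing cells matters for this cell type.

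The libraries held 38747857 to 41860684 counts in total in 3D Nichoids, and 38353363 to 39112286 in 2D Nichoids. The 8 genes together took 0.188% to 0.195% of the counts in 3D Nichoids and 0.210% to 0.212% in 2D Nichoids. These are shares of raw counts, before the TMM scaling explained below, and most of them were of Ccnd1. With that scaling, Ccnd1 was only 3.05% lower in 3D Nichoids. In a principal component analysis over tested genes, replicate C of the 2D Nichoids stood apart on the second component (41.3, against -32.5 and -30.1 for replicates A and B), so values without it are given where they differ. Markers of mesenchymal stem cells, blood cells and endothelial cells were not analysed here, since symbols could not be paired with the other identifiers, and the labelled cell type was therefore not checked. Levels below are normalised CPM (counts set to 1 common library size, after scaling by TMM, a factor that corrects for library composition), and log2(FC) is the log2 ratio of 3D to 2D Nichoids from edgeR's quasi-likelihood test.

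All 8 genes passed the filter on low counts and all 8 passed an adjusted p value of 0.05. The 5 mitotic genes, Pcna and Ccnd1 were lower in 3D Nichoids, and Cdkn1a was higher. Over all 13523 tested genes, 18.8% were called lower and 18.9% higher at the same threshold. Well-counted genes pass more easily, and among genes with a mean normalised count of at least 500, as all 8 have, 26.1% were called lower and 23.9% higher. The median log2(FC) was -0.26 over the 8 genes and -0.31 over the 5 mitotic genes, against -0.006 over all tested genes. The median absolute log2(FC) was 0.26 over the 8 genes, 0.21 over all tested genes and 0.16 over those with a mean normalised count of at least 500. A larger absolute log2(FC) than that of Ccnb1 was found in 25.4% of tested genes, than that of Cdk1 in 31.8%, than that of Cdc20 in 34.9% and than that of Mki67 in 61.4%. None of the 8 met the study's cutoff of an absolute log2(FC) above 1, which 3.42% of tested genes met together with the adjusted p value. The 3D and 2D libraries did not overlap in 7 of the 8 genes, and they did not overlap in 46.9% of all tested genes. That share includes genes with few counts, and it was not computed for genes with a mean normalised count of at least 500 alone. In bulk RNA, fewer dividing cells and less of a transcript in each dividing cell cannot be told apart.

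**Figure D1:**
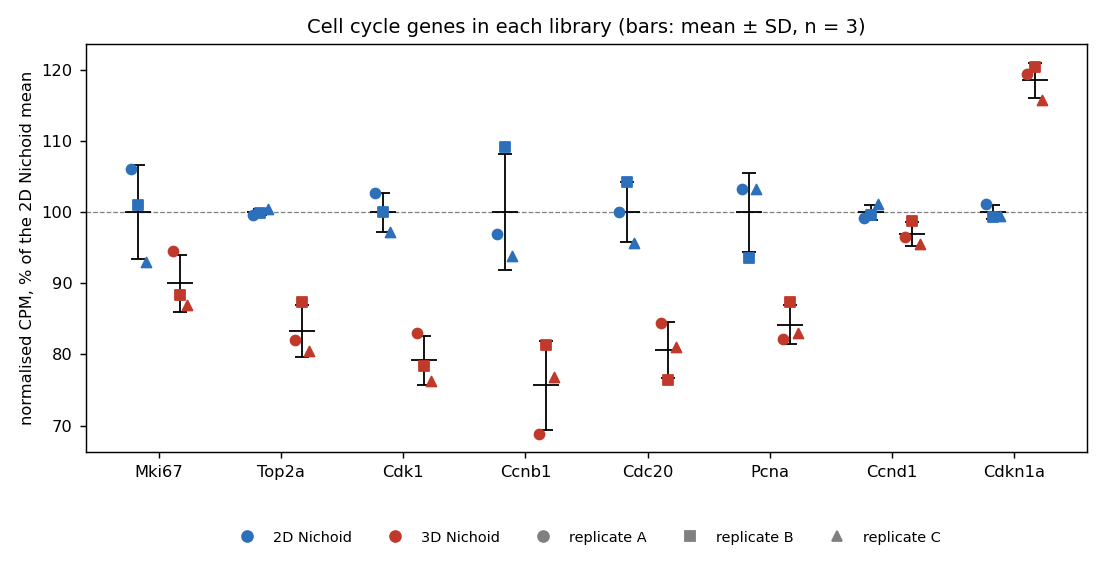
Normalised CPM of each cell cycle gene in each library, as a percentage of the mean of the 2D Nichoid libraries, with bars for the mean ± SD (n = 3). The 3D Nichoid libraries lie below the dashed line at 100 for every gene except Cdkn1a, and only for Mki67 do the groups overlap.

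Cdk1 (ENSRNOG00000000632) is the kinase that drives entry into mitosis. In the order of replicates A, B and C, its counts were 1403, 1232 and 1240 in 3D against 1711, 1666 and 1657 in 2D Nichoids, an order kept for all genes below. In normalised CPM these were 34.8, 32.9 and 32.0 against 43.1, 42.0 and 40.8. Every 3D library lay below every 2D library. The mean was 33.2 ± 1.45 CPM (SD, n = 3) in 3D and 42.0 ± 1.16 CPM (SD, n = 3) in 2D Nichoids. This was a level 20.8% lower, with log2(FC) at -0.34 ± 0.07 (SE) and an adjusted p value = 0.000106 by edgeR.

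Ccnb1 (ENSRNOG00000058539) encodes cyclin B1, the partner that activates Cdk1. The 3D Nichoid libraries held 764, 839 and 820 of its counts and the 2D Nichoid libraries 1060, 1194 and 1049, that is 19.0, 22.4 and 21.2 CPM against 26.7, 30.1 and 25.8 CPM. It showed the largest decrease of the 8 genes and also the widest spread between replicates, with coefficients of variation of 8.33% in 3D and 8.14% in 2D Nichoids. Its level was 24.4% lower, with log2(FC) at -0.40 ± 0.09 (SE) and an adjusted p value = 0.00031 by edgeR, and 11.3% of tested genes lay below it. Its 95% interval, from -0.58 to -0.22, held the estimates of Cdk1, Cdc20, Top2a and Pcna.

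Promoters are shown for Cdk1, Ccnb1 and Top2a, which were all lower, and for Cdkn1a, which rose, because mitotic genes are known to share CCAAT boxes, bound by NF-Y, and CHR elements, bound by the complexes that silence them in resting cells. The sequences come from RefSeq on GRCr8, a later build than the counts used, and 7 of the 8 genes had an entry (Ccnd1 did not). The windows searched run from 250 bases before to 50 bases after the annotated start, and the stretches printed end where the outermost annotated transcript begins. Capitals mark, on either strand, CCAAT, the CHR letters TTTGAA or TTCGAA, the E2F letters TTTCCCGC, TTTCGCGC or TTTGGCGC, and the p53 consensus decamer.
Cdk1 (GRCr8, chr20:19265043-19265251, plus strand): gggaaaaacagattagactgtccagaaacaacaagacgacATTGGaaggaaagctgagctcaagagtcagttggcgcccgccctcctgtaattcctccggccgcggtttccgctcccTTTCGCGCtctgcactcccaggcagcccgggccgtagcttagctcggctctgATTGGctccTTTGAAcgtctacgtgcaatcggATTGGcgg
Ccnb1 (GRCr8, chr2:33655226-33655475, minus strand): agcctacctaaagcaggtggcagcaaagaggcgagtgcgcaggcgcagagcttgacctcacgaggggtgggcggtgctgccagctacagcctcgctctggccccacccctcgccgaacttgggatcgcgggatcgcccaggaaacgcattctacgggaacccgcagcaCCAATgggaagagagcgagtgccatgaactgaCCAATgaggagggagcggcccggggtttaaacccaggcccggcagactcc
Top2a (GRCr8, chr10:84473094-84473343, minus strand): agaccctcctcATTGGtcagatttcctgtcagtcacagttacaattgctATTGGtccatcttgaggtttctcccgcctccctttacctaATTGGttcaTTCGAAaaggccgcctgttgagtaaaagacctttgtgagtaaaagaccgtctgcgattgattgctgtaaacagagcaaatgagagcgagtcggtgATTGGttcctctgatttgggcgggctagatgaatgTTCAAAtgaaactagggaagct
Cdkn1a (GRCr8, chr20:7150682-7150819, plus strand): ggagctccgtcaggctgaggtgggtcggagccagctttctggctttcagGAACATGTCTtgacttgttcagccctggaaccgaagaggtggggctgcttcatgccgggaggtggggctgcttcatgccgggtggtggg

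CCAAT was found in the windows of all 6 lower genes that had one, and in 37.5% of the 33469 promoters of that length in the table. TTTGAA was found in 4 of the 6 (Mki67, Top2a, Cdk1 and Cdc20), against 18.3% of all promoters, and TTCGAA in Top2a alone, against 1.69%. In Cdk1 the second TTTGAA lies at positions -16 to -11 from the start, past the end of the printed stretch. Ccnb1 held 2 CCAAT boxes and neither of the CHR spellings searched, and Pcna held 1 CCAAT box. An E2F match was found in Cdk1 only, with 1.72% of all promoters holding one. The Cdkn1a window held none of these and a single p53 decamer, which 7.98% of promoters hold. In Mki67, whose window lies within its annotated gene and is not printed, a TTTGAA and a CCAAT on the other strand share 1 base, and no other matches of different motifs overlap. These matches describe letters in the windows and were not tested for binding. Pairs of p53 decamers, other spellings of the motifs and sequence outside the windows were not searched.

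Top2a (ENSRNOG00000053047) encodes the topoisomerase that untangles chromosomes before they separate. There were 3322, 3291 and 3134 counts in 3D against 3972, 3983 and 4101 in 2D Nichoids. The 2D libraries were nearly level, at 100.1, 100.3 and 101.0 CPM, and the 3D libraries lay below all of them, at 82.5, 87.8 and 80.8 CPM. The level was 16.7% lower in 3D, with log2(FC) at -0.26 ± 0.05 (SE) and an adjusted p value = 8.21e-06 by edgeR.

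Cdc20 (ENSRNOG00000028415) activates the ubiquitin ligase that starts anaphase. Counts of 1342, 1131 and 1241 in 3D stood against 1568, 1633 and 1535 in 2D Nichoids, that is 33.3, 30.2 and 32.0 CPM against 39.5, 41.1 and 37.8 CPM. The groups did not overlap. Its level was 19.3% lower, with log2(FC) at -0.31 ± 0.07 (SE) and an adjusted p value = 0.000475 by edgeR.

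Mki67 (ENSRNOG00000028137) encodes the Ki-67 protein that coats mitotic chromosomes and is widely stained as a mark of cycling cells. Its counts reached 5953, 5176 and 5266 in 3D and 6572, 6265 and 5899 in 2D Nichoids. In CPM the values were 147.8, 138.1 and 135.8 against 165.6, 157.8 and 145.2, and replicate A of the 3D Nichoids lay above replicate C of the 2D Nichoids. It was the only one of the 8 genes in which the groups overlapped. The ratio of 3D to 2D was 0.900, with log2(FC) at -0.15 ± 0.04 (SE) and an adjusted p value = 0.00316 by edgeR, the smallest decrease among the mitotic genes. Without replicate A of the 2D Nichoids the log2(FC) was -0.10 and the adjusted p value 0.06 (edgeR), and without replicate C of the 2D Nichoids they were -0.20 and 4.02e-05.

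Pcna (ENSRNOG00000021264) encodes the ring that holds DNA polymerase on its template. Its libraries held 2076, 2054 and 2019 counts in 3D against 2568, 2329 and 2630 in 2D Nichoids. In CPM, 51.5, 54.8 and 52.1 stood against 64.7, 58.7 and 64.7, without overlap. Replicate B was the highest of the 3D and the lowest of the 2D libraries. The level was 15.8% lower, within the range of the mitotic genes, with log2(FC) at -0.25 ± 0.06 (SE) and an adjusted p value = 0.000525 by edgeR.

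Ccnd1 (ENSRNOG00000020918), the D cyclin that answers to growth factors and adhesion in G1, differed least. Counts of 50578, 48152 and 48171 in 3D faced 51186, 51453 and 53455 in 2D Nichoids, that is 1255, 1285 and 1243 CPM against 1290, 1296 and 1316 CPM. The groups did not overlap, but the highest 3D and the lowest 2D library lay close together. Its level was 3.05% lower, with log2(FC) at -0.045 ± 0.017 (SE), a 95% interval from -0.080 to -0.009 and an adjusted p value = 0.04 by edgeR, and 87.8% of tested genes had a larger absolute log2(FC). This call was lost in 5 of the 6 fits that left out a library, in which the log2(FC) ranged from -0.06 to -0.03. Only the fit without replicate B of the 3D Nichoids kept it.

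Cdkn1a (ENSRNOG00000000521) was the one gene of the set that was higher in 3D Nichoids. Its 14769, 13847 and 13768 counts in 3D compared with 12314, 12098 and 12398 in 2D Nichoids, or 366.6, 369.5 and 355.2 CPM against 310.4, 304.7 and 305.2 CPM. All 3D libraries lay above all 2D libraries, and the spread within a group was small, with coefficients of variation of 2.09% and 1.01%. The mean rose from 306.8 ± 3.11 CPM (SD, n = 3) in 2D to 363.8 ± 7.59 CPM (SD, n = 3) in 3D Nichoids. Its level was 18.6% higher, with log2(FC) at 0.25 ± 0.03 (SE) and an adjusted p value = 1.94e-10 by edgeR, the smallest of the 8. In 77.4% of tested genes the log2(FC) was lower.

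**Figure D2:**
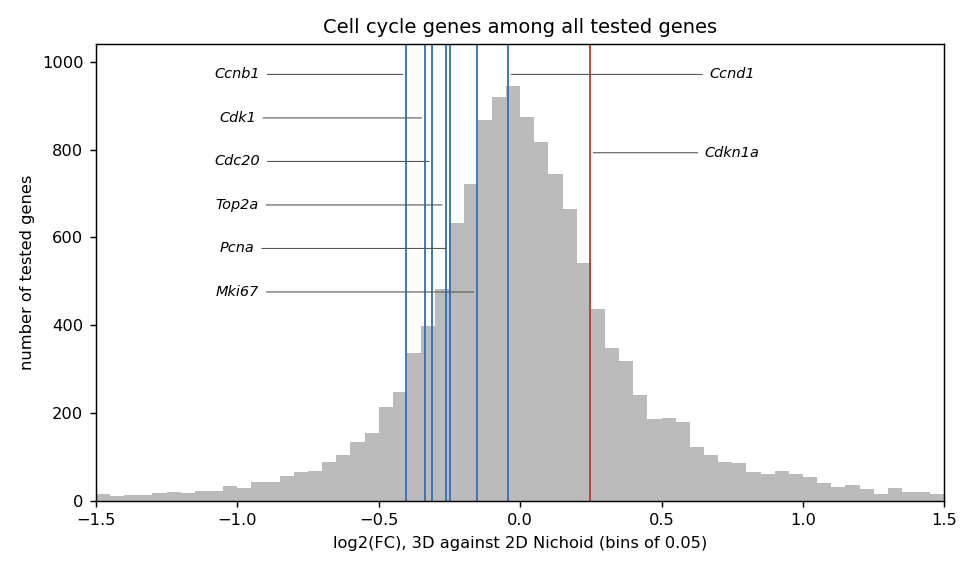
Number of tested genes by log2(FC), 3D against 2D Nichoids, with vertical lines at the cell cycle genes. 293 genes lie outside the plotted range. The mitotic genes and Pcna sit on the left flank from -0.40 to -0.15, Ccnd1 near the peak at -0.04 and Cdkn1a on the right flank at 0.25.

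How far these values depend on the scaling was examined next, since the most counted gene took 5.69% to 5.73% of the counts in 3D and 4.21% to 4.25% in 2D Nichoids. With total counts alone, without the TMM factor, the median log2(FC) over tested genes moved by -0.10, and 71.8% of called genes were lower in 3D Nichoids, against 49.9% with TMM. Every one of the 8 genes kept its direction and its call. Mki67 moved to -0.25, Ccnd1 to -0.15 (adjusted p value = 5.63e-09, edgeR) and Cdkn1a to 0.14 (adjusted p value = 1.59e-05, edgeR), each by more than 1.5 times, and the other 5 by less. The log2(FC) of Ccnd1, smaller than the shift itself, was thus the one that depended most on the scaling.

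**Figure D3:**
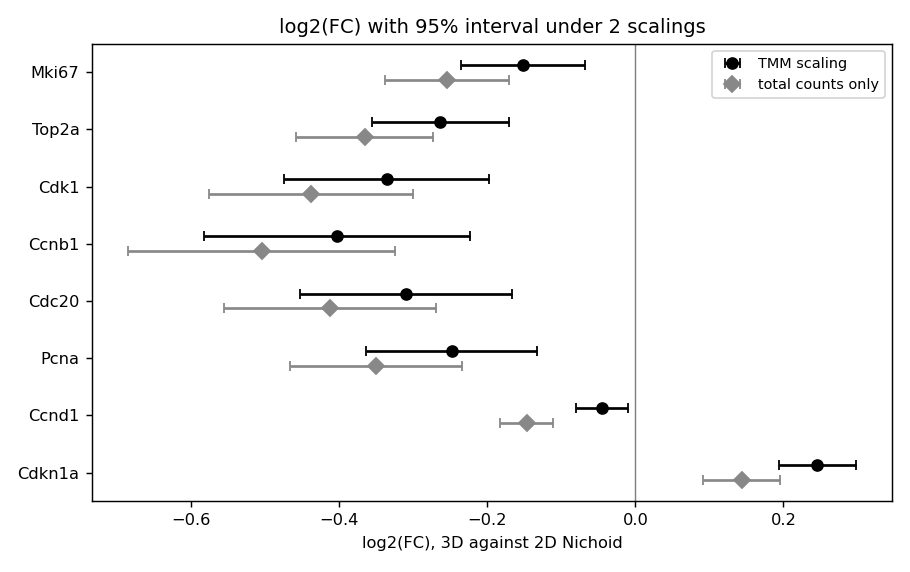
log2(FC) of each gene, 3D against 2D Nichoids, with its 95% interval from edgeR under TMM scaling (circles) and under total counts only (diamonds). All 8 estimates move left without the TMM factor, by about the median shift of -0.10, and none crosses 0.

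Ratios of 2 genes within a library do not depend on the scaling, and they were compared between the groups but not between genes. There were 10.5, 11.2 and 11.1 Cdkn1a counts for each Cdk1 count in 3D, and 7.20, 7.26 and 7.48 in 2D Nichoids. The means were 11.0 ± 0.378 and 7.31 ± 0.15 (SD, n = 3), a difference of 0.58 on the log2 scale that joins the rise of Cdkn1a to the fall of Cdk1. Cdkn1a per Ccnd1 was 0.288 ± 0.00319 in 3D and 0.236 ± 0.00437 in 2D Nichoids (SD, n = 3), and Ccnd1 per Cdk1 was 38.0 ± 1.69 against 31.0 ± 1.18 (SD, n = 3). In these 3 ratios the groups did not overlap. Ratios to Cdk1 did not overlap in 62.4% of all other tested genes, and the share for ratios to Ccnd1 was not computed. The share for ratios to Cdk1 includes genes with few counts and was not computed for well-counted genes alone.

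Among the genes that were lower in 3D Nichoids, the ratio to Cdk1 was compared for each. Mki67 gave 4.24, 4.20 and 4.25 counts per Cdk1 count in 3D against 3.84, 3.76 and 3.56 in 2D Nichoids, without overlap. The ratios of Top2a, Ccnb1, Cdc20 and Pcna to Cdk1 overlapped between the groups. Their differences on the log2 scale were 0.07, -0.07, 0.03 and 0.09. Of the 7 ratios to Cdk1, 3 did not overlap (Mki67, Ccnd1 and Cdkn1a), while the ratio to Cdk1 did not overlap in 62.4% of all other tested genes. A two-sided exact permutation test gave p = 0.1 for each ratio without overlap, the smallest that 3 libraries against 3 allow, and from 0.3 to 0.7 for the others.

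**Figure D4:**
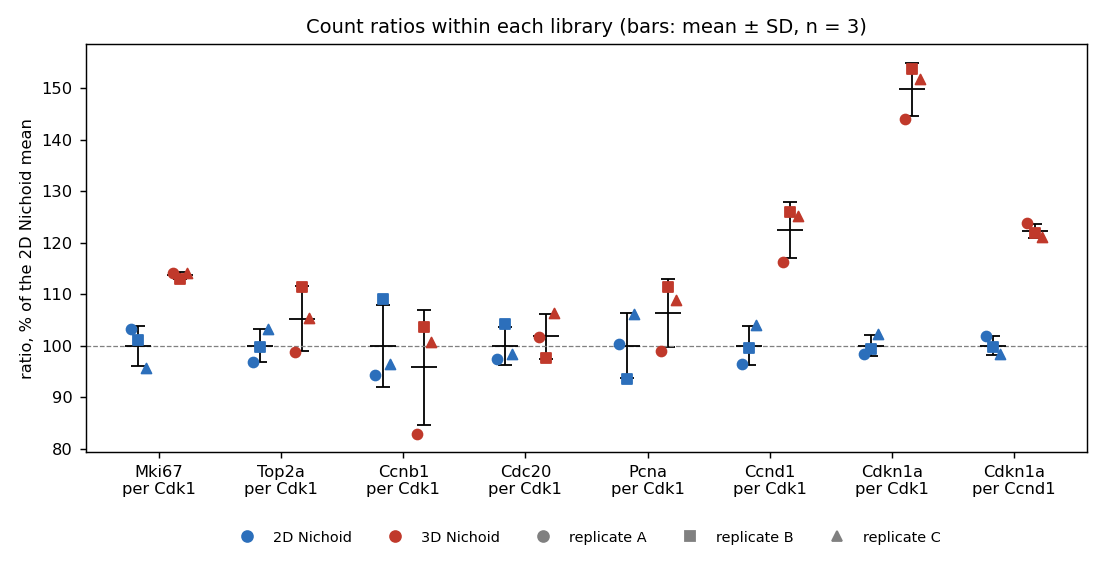
Ratio of the counts of 2 genes within each library, as a percentage of the mean ratio in the 2D Nichoid libraries, with bars for the mean ± SD (n = 3). Mki67, Ccnd1 and Cdkn1a per Cdk1, and Cdkn1a per Ccnd1, lie higher in all 3D Nichoid libraries, and the other 4 ratios overlap.

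Likeness between genes was measured as the root mean square difference of their centred log2 CPM over the 6 libraries, among 11610 genes with a mean normalised count of at least 50. It is a description, and the libraries share their depth and grouping. Within the set, Cdc20 was the nearest to Cdk1 (0.049, rank 104 of all genes compared), followed by Top2a (0.068, rank 350) and Pcna (0.087, rank 794). Mki67 (0.099, rank 1113) and Ccnb1 (0.125, rank 2023) lay farther from Cdk1 than Pcna did. The nearest to Pcna was Top2a (0.050, rank 100). As these ranks show, many genes outside the set lay nearer to Cdk1 than its partners in mitosis did. The distance also takes in counting noise, which weighs most on genes with fewer counts such as Ccnb1. The ranks therefore do not measure shared regulation. The gene outside the set most like Cdk1 was ENSRNOG00000005802, at 0.018, with 3919, 3468 and 3587 counts in 3D and 4915, 4756 and 4768 in 2D Nichoids. For Pcna it was ENSRNOG00000007851, at 0.025, with 1786, 1788 and 1692 counts against 2138, 2030 and 2241. For Ccnd1 it was ENSRNOG00000009071, at 0.007, with 2182, 2051 and 2062 counts against 2198, 2206 and 2309. That gene had a log2(FC) of -0.050 and was not called (adjusted p value = 0.526, edgeR). Its mean normalised count was 2167, against 50492 for Ccnd1. For Cdkn1a it was ENSRNOG00000008246, at 0.018, with 11981, 11071 and 11347 counts against 10073, 9925 and 10324. These identifiers were not paired with symbols.

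**Figure D5:**
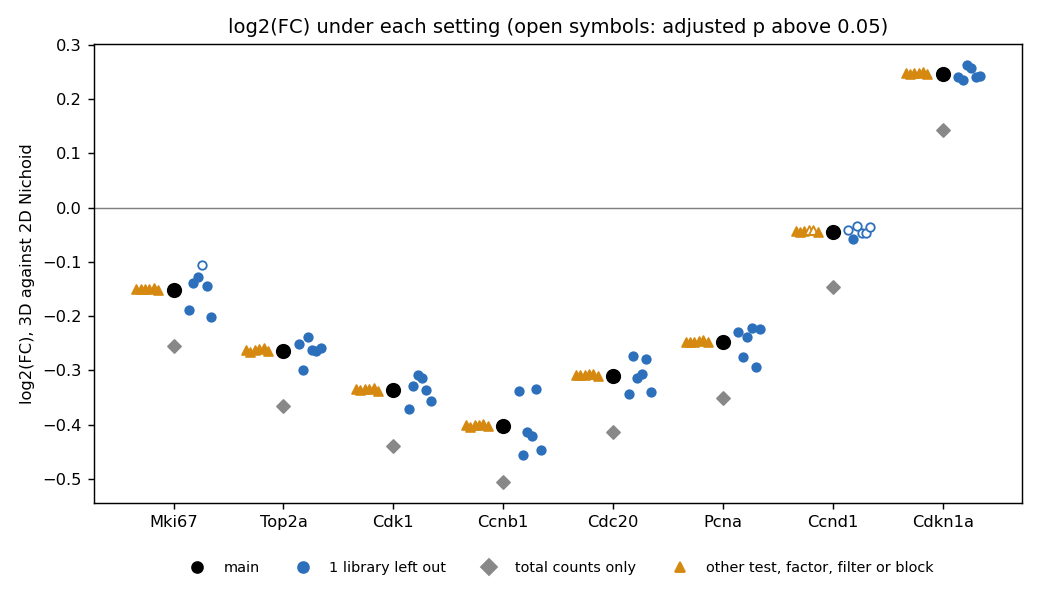
log2(FC) of each gene, 3D against 2D Nichoids, with all libraries and TMM (black), with 1 library left out (blue), with another test, factor, filter or the replicate block (orange) and with total counts only (grey). Open symbols have an adjusted p value above 0.05, and they occur for Ccnd1 and once for Mki67, while no symbol crosses 0.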

How the data were processed

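The authors aligned single-end reads of poly(A)-selected libraries with STAR and counted them per Ensembl gene with HTSeq, and they deposited whole read counts for each library, without normalization. The submitters' processing notes name Rnor_6.0, STAR 2.7.0a and HTSeq 0.12.4, while the methods of the study name a later build and HTSeq version, so the build behind the counts was not settled. They name no sequencing batches. Strand, PCR copies and reads that align to near-identical copies are not addressed in the sources used here, so a gene with such a copy could hold reads of it. Counts were analysed in R 4.3.3 with edgeR 4.0.16 (filterByExpr, TMM, robust quasi-likelihood test, Benjamini-Hochberg adjustment over all 13523 tested genes, no covariates), and the procedure was tested on simulated data. The SE of a log2(FC) was derived from it and its F statistic. DESeq2 1.42.0, limma-voom 3.58.1, other factors and filters, a replicate block, each library left out, and a test of log2(FC) against 1 were the alternatives. Figures and promoter searches used Python 3.11.15.

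The genes and lists were chosen with earlier results of these data known. All 8 genes are named, with the gene most like each of Cdk1, Pcna, Ccnd1 and Cdkn1a. Further lists of replication, mitosis, G1, inhibitor, p53 and cell type marker genes had been drawn up but were not analysed here, as 0 Ensembl identifiers matched the RefSeq table. Levels were not compared between genes, since gene lengths of the build were not used.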

Additional observations from a re-analysis of the deposited data

How the results depend on the processing

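The direction of all 8 genes held in all 13 alternative fits against a log2(FC) of 0, and the call held in 96 of the 104 resulting comparisons. Of the 8 that lost it, 7 were of Ccnd1 and 1 was of Mki67. Ccnd1 lost its call without a filter on low counts (log2(FC) -0.042, adjusted p value = 0.0795, edgeR) and with at least 10 counts in every library (-0.041, adjusted p value = 0.0555), and its adjusted p value ranged from 0.00874 to 0.0795 over settings that kept all libraries and a composition factor. When the log2(FC) was tested against 1, no gene of the set passed. The estimates were unchanged, at -0.15 (Mki67), -0.26 (Top2a), -0.34 (Cdk1), -0.40 (Ccnb1), -0.31 (Cdc20), -0.25 (Pcna), -0.045 (Ccnd1) and 0.25 (Cdkn1a). All of them lie far below the tested size, so this outcome was fixed in advance and is no check on the processing.

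In the 6 fits without 1 library each, log2(FC) ranged from -0.20 to -0.10 for Mki67, from -0.30 to -0.24 for Top2a, from -0.37 to -0.31 for Cdk1, from -0.46 to -0.33 for Ccnb1, from -0.34 to -0.27 for Cdc20, from -0.29 to -0.22 for Pcna, from -0.058 to -0.034 for Ccnd1 and from 0.24 to 0.26 for Cdkn1a. Where a fit left 2 libraries in a group, they were assumed to vary like the other group. The number of genes past the adjusted p value, 5109, ranged from 4158 to 5009 in these fits.

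Under the replicate block, with the letter as a term, 5132 genes passed, and no call of the 8 genes changed. Deviations from the group means did not go together within a letter, with correlations across genes of 0.035, -0.011 and 0.025 for A, B and C, so the letters were taken as names. The 8 genes had from 764 to 53455 counts per library, and intervals cover counting error and the spread between these libraries only. The counts of other pathway lists under alternatives were not run, because identifiers could not be paired with symbols.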
